A study of Mus musculus with 2 samples.

Results

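Messenger RNA of 10 cytokine and chemokine genes that B cells can make was compared between B cells of AIRE transgenic NOD mice and B cells of non-transgenic NOD mice. The genes were the inflammatory cytokines Tnf, Lta, Ltb and Il6, the chemokines Ccl3, Ccl4 and Ccl22, and the regulatory cytokines Il10, Tgfb1 and Ebi3. They were found as every probe set whose platform gene symbol is one of these names, which gave 11 probe sets of 45037 and 10 genes of 18193 named ones. Tgfb1 had 2 probe sets and the other 9 genes had 1 each.

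The transgenic group was 8 weeks old, of NOD background, an inbred strain that develops autoimmune diabetes, and carried human AIRE under an MHC class II promoter. AIRE lets thymic epithelial cells transcribe antigens of peripheral organs, and MHC class II promoters are active in B cells and in other antigen-presenting cells. The non-transgenic group had the same background and age without the transgene. In both groups B220-positive cells lacking Thy1 and CD11c were taken, and each group was 1 Affymetrix array of RNA from 2 mice. The labels do not name the tissue of origin. With 1 array per group there is no replicate, no test and no p-value, so every ratio describes these 2 arrays and their number limits the precision.

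B cells secrete cytokines besides antibody. Tumour necrosis factor, lymphotoxin and interleukin 6 promote inflammation and shape lymphoid organs, and the chemokines recruit other leukocytes. Interleukin 10, transforming growth factor beta 1 and interleukin 35, of which Ebi3 is a chain, restrain T cells and myeloid cells, and B cells that make them are called regulatory B cells. Most of these genes are transcribed strongly only after stimulation, often through NF-kB, and their messengers are short-lived.

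Promoters of 4 members are shown because Tnf and Ccl3 had the highest ratios, Tgfb1 the lowest, and Ltb, the gene next to Tnf, a ratio near 0. They are RefSeq sequences of build GRCm38.p6, from 250 bases before to 50 bases after the transcript start, on the transcribed strand. The Tnf window is chr17:35201958-35202257 on the minus strand, that of Ccl3 chr11:83649329-83649628 on the minus strand, that of Tgfb1 chr7:25686752-25687051 on the plus strand and that of Ltb chr17:35194257-35194556 on the plus strand. Capitals mark matches, searched on both strands, to letters that resemble known elements. These were GGGANTT for one side of a kappa B site, TGANTCA for AP-1, TATAAA for a TATA box and GGGCGG for a GC box. No match overlapped another.
Tnf: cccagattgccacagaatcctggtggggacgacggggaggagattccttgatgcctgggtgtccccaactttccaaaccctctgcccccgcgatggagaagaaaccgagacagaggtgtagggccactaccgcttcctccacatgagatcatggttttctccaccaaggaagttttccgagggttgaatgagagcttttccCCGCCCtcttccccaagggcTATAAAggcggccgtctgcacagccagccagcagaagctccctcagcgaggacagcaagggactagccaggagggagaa
Ccl3: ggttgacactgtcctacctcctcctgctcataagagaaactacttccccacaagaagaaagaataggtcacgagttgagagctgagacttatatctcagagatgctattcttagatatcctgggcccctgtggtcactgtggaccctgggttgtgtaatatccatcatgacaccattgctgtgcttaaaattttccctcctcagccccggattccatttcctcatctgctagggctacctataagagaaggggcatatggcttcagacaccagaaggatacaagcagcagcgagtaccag
Tgfb1: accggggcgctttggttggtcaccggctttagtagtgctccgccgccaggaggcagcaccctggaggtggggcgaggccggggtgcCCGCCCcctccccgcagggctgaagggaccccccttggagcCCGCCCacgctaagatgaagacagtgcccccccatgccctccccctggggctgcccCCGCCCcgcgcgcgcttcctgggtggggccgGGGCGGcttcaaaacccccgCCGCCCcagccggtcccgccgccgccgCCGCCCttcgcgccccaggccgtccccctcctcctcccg
Ltb: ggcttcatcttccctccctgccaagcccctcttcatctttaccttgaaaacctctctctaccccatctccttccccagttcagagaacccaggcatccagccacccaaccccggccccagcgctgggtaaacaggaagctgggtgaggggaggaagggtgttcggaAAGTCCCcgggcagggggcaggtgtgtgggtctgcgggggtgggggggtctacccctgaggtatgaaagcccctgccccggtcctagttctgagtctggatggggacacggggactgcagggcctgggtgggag
The Tnf window held a TATA box match at position -29 from the start and a GC box match at -49. The Tgfb1 window held 6 GC box matches and was 77% G and C, against a median of 52.7% over 32851 promoters of that length. The Ltb window had 1 kappa B type match at -84, and the Ccl3 window had none of these letter patterns. The RefSeq promoter table held 8 of the 10 members, the others being Il10 and Ccl4. A kappa B type match stood in 3 of these 8 windows (Ltb, Il6 and Ccl22) and in 16.5% of all promoters, and an AP-1 match in 1 of the 8 (Il6) and in 7.81% of all. The TATAAA letters stood in 2 of the 8 windows (Tnf at -29 and Lta at -167) and in 13.6% of all promoters. The GC box letters stood in 2 of the 8 and in 35.7% of all. Such matches describe the letters of these windows only.

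Intensities below are linear array signals after the medians of the 2 arrays were aligned, and ratios are log2 of transgenic over non-transgenic. A gene was taken as expressed above the filter if its higher value reached 98.8, the median of all probe sets on both arrays. By this measure 8 of the 10 members lay above the filter, 7 of them on both arrays. Il10 passed through its transgenic value only, and Il6 and Ccl22 were under the filter on both arrays. The brightness of a probe set depends on its probes, so levels are compared between arrays and not between genes. In bulk RNA, fewer cells that make a messenger and less messenger per cell cannot be told apart.

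**Figure D1:**
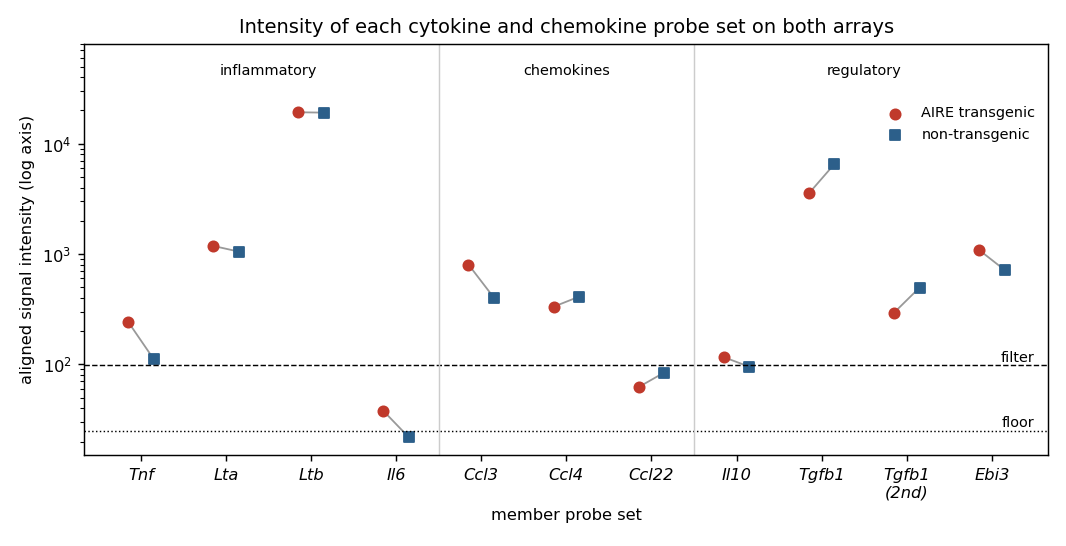
Aligned signal intensity (log axis) of each member probe set on the transgenic array (circles) and the non-transgenic array (squares), with 1 array per group and therefore no error bars. Lines mark the filter at 98.8 and the floor at 25.1, the label 2nd marks the dimmer Tgfb1 probe set, and Tnf, Ccl3 and both Tgfb1 probe sets show the steepest connecting lines among members above the filter.

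Tnf and Ccl3 were higher on the transgenic array and Tgfb1 was lower, while Lta and Ltb were close to equal. At a threshold of 2-fold, 2 of the 8 members above the filter were higher, Tnf and Ccl3, against 4.43% of 10778 genes above the filter. None of the 8 was at least 2-fold lower, against 3.19% of all genes. These counts held under none of the other 3 scalings. As deposited 0 members were higher and 1 lower. After quantile normalization or loess 1 was higher (Tnf) and 1 lower. The lower one was Tgfb1 each time. The shares over all genes were counted after the alignment only and cannot be set beside the counts under other scalings. The median log2 ratio of all genes above the filter was 0.19 after the alignment, and 4 of the 8 members lay above it. That all-gene median was 0.01 as deposited, 0.05 after quantile normalization and 0.04 after loess, so each main ratio is also given relative to 0.19. Scatter depended on brightness: the SD of the log2 ratio was 0.84 over genes with a mean level under 300, 0.48 from 300 to 1000, 0.42 from 1000 to 10000 and 0.38 from 10000 upward.

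Among the inflammatory cytokines, Tnf encodes tumour necrosis factor, a membrane-bound trimer that is cleaved to a soluble form. Its intensity was 243 in transgenic cells and 112 in non-transgenic cells, both above the filter. Tnf was thus 2.17-fold higher, a log2 ratio of 1.12 and of 0.93 relative to all genes. As deposited the ratio was 0.96, under 2-fold, and a filter at the 75th percentile removed the gene. It is a dim gene, with a mean level of 178, and of genes above the filter with a mean level under 300, 10.2% were at least 2-fold higher.

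Lta encodes lymphotoxin alpha, a soluble cytokine when it forms a trimer of its own. Its intensity was 1184 in transgenic cells and 1052 in non-transgenic cells, a log2 ratio of 0.17. Ltb encodes the membrane anchor that binds lymphotoxin alpha into the heterotrimer through which B cells support follicle structure. Ltb was bright on both arrays, at 19245 in transgenic and 19108 in non-transgenic cells, a log2 ratio of 0.01. Relative to all genes Lta stood at -0.02 and Ltb at -0.18. The median ratio depended on brightness, at 0.26 for genes with a mean level from 1000 to 10000, such as Lta. For genes of 10000 and over, such as Ltb, it was -0.06. Before adjustment to all genes, the ratios of Lta and Ltb had other signs under some scalings. Lta was at -0.01 after loess and Ltb at -0.15 as deposited. Il6, the cytokine of plasma cell differentiation and the acute phase, was at 37.9 in transgenic and 21.8 in non-transgenic cells, the second under the floor of 25.1.

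The 3 genes Ltb, Tnf and Lta follow each other on chromosome 17 with 0 protein-coding genes between them in the RefSeq table. The log2 ratio of Ltb was lower than that of Tnf by 1.11, and that of Tnf was above that of Lta by 0.95. As a yardstick for scatter between probe sets, the 2 brightest of the same gene differed in log2 ratio by a median of 0.36 over 5172 genes. The 90th percentile was 1.02. Such pairs share their RNA, so they do not measure scatter between mice or arrays, and they were not matched for brightness to these genes. Of those same-gene pairs, 92.2% were no further apart than Ltb and Tnf, and 88.3% no further apart than Tnf and Lta.

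Ccl3 and Ccl4 encode the macrophage inflammatory proteins 1 alpha and 1 beta, which attract monocytes, T cells and natural killer cells. Ccl3 was at 803 in transgenic and 401 in non-transgenic cells, 2.00-fold higher, with a log2 ratio of 1.002 and of 0.82 relative to all genes. This lies just at the threshold, and under the other 3 scalings its ratio was between 0.84 and 0.88. Among genes with a mean level from 300 to 1000, 3.02% were at least 2-fold higher. Ccl4 had its higher value on the other array, at 333 in transgenic and 411 in non-transgenic cells, a log2 ratio of -0.30 and of -0.49 relative to all genes. The pair are direct neighbours on chromosome 11, with 0 protein-coding genes between them, and their log2 ratios differed by 1.31. Of same-gene probe set pairs 94.8% were no further apart. Ccl22, a chemokine that draws regulatory T cells through the receptor CCR4, was under the filter at 62.3 in transgenic and 84.3 in non-transgenic cells.

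Of the regulatory cytokines, Tgfb1 encodes transforming growth factor beta 1, which is secreted as a latent complex and suppresses lymphocyte activation. Its brighter probe set was at 3541 in transgenic and 6537 in non-transgenic cells, and its dimmer one at 294 in transgenic and 496 in non-transgenic cells. The log2 ratios were -0.88 and -0.76, so the brighter probe set was 45.8% lower and the dimmer one 40.8% lower. Relative to all genes the brighter probe set stood at -1.07. Among genes with a mean level from 1000 to 10000 the middle 95% of log2 ratios ran from -0.73 to 0.96, and Tgfb1 lay below it. In that range 1.08% of genes were at least 2-fold lower after the alignment, under which Tgfb1 was within 2-fold. The gene passed 2-fold lower as deposited (-1.05), after quantile normalization (-1.08) and after loess (-1.06). The share of genes was not counted under those scalings.

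Ebi3 encodes a receptor-like chain shared by interleukin 27 and interleukin 35. It was at 1088 in transgenic and 717 in non-transgenic cells, a log2 ratio of 0.60 and of 0.42 relative to all genes. Il10 encodes interleukin 10, the cytokine most used to define regulatory B cells. Il10 was at 116 in transgenic and 95.2 in non-transgenic cells, a log2 ratio of 0.29 at a level beside the filter. As a measure of array background, 43 probe sets of olfactory receptor genes, which B cells are not known to use, had a 95th percentile of 82.7 in transgenic and 92.6 in non-transgenic cells. This set was chosen after the data were seen. At least as bright as Il10 were 0 of the 43 in transgenic cells and 1 in non-transgenic cells. For Il6 these numbers were 14 in transgenic and 19 in non-transgenic cells, and for Ccl22 they were 6 in transgenic and 4 in non-transgenic cells. For the remaining 7 members they were 0 on both arrays.

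**Figure D2:**
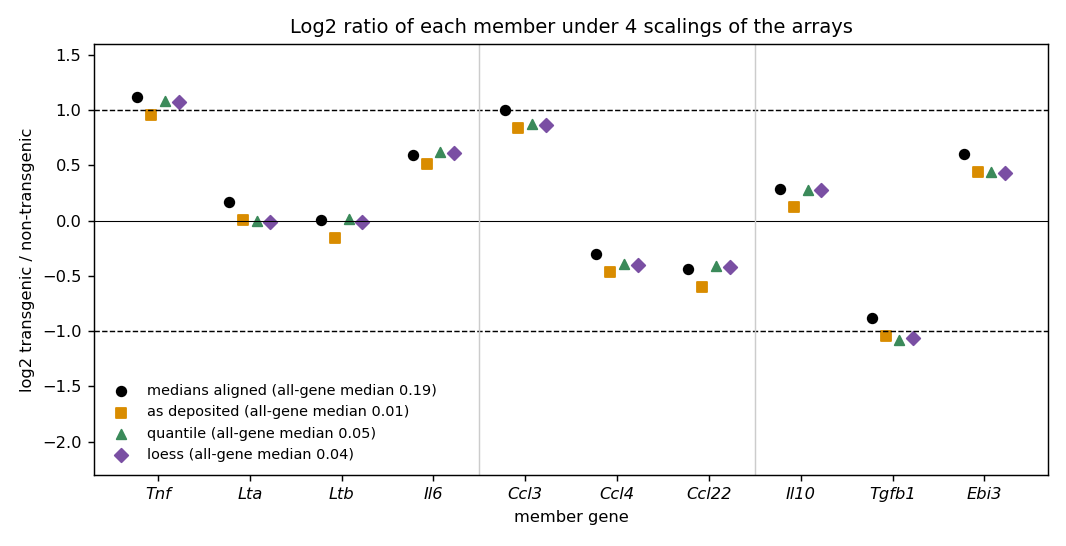
Log2 ratio of transgenic over non-transgenic intensity for each member gene under 4 scalings of the arrays, with dashed lines at 2-fold. Each point is 1 ratio of 1 array to 1 array; Tnf and Ccl3 lie near the upper line, Tgfb1 lies near the lower one, and Lta and Ltb lie near 0.

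Set side by side, regulatory and inflammatory products overlapped in their ratios. The 4 inflammatory cytokines ran from 0.01 for Ltb to 1.12 for Tnf with a median of 0.38, and all 4 were above 0. The 3 regulatory cytokines ran from -0.88 for Tgfb1 to 0.60 for Ebi3 with a median of 0.29. The 3 chemokines ran from -0.44 for Ccl22 to 1.002 for Ccl3 with a median of -0.30. These medians hold members under the filter, and the median over all 18193 genes, counted likewise, was 0.03. Over the 10 members the median was 0.23. Over members above the filter the medians were 0.17 for 3 inflammatory cytokines, 0.29 for 3 regulatory cytokines and 0.35 for 2 chemokines, so the sign of the chemokine median and the order of the other medians turn with the filter. The regulatory members differed among themselves by more than their median differed from that of the inflammatory members, by either count.

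**Figure D3:**
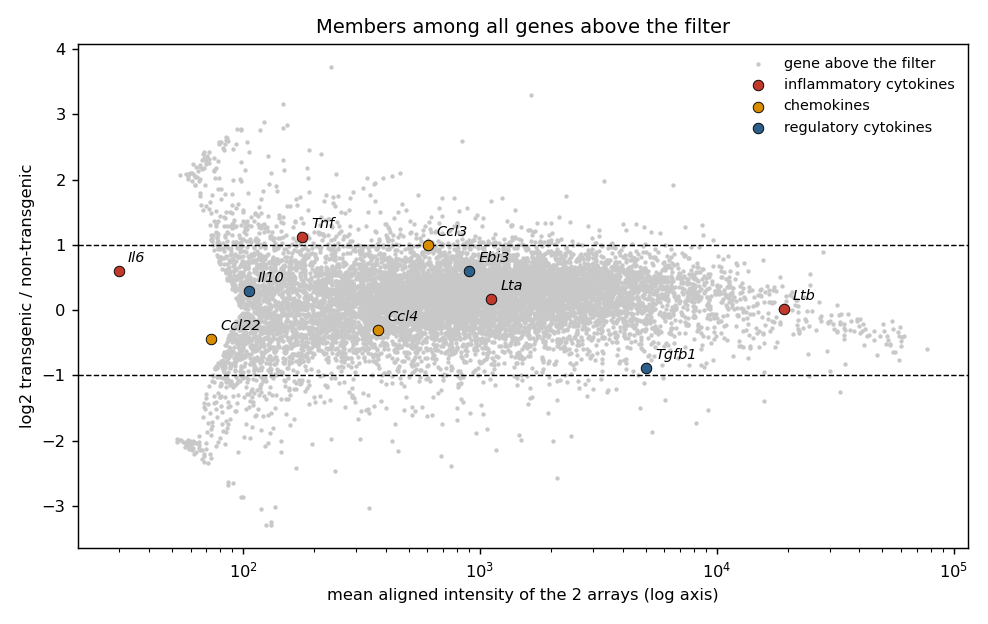
Log2 ratio against mean aligned intensity (log axis) for every gene above the filter (grey) and for the 10 members, coloured by group, with Il6 and Ccl22 shown although they are under the filter. Dashed lines mark 2-fold, and the grey cloud widens toward dim genes, where Tnf and Il10 lie, while Tgfb1 lies at its lower edge among bright genes.

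Markers bear on which cells the RNA came from. The B cell gene Ms4a1 was bright on both arrays, at 29789 in transgenic and 38866 in non-transgenic cells. So was Ptprc, at 28480 in transgenic and 35684 in non-transgenic cells. It encodes CD45, of which B220, used in the sort, is a form. Other leukocytes also express Ptprc, so its level does not single out B cells, although it is in the B cell list. All 9 genes of the B cell list, Ptprc included, lay below the all-gene median ratio, with a summed level of 147827 in transgenic and 229516 in non-transgenic cells. At least 2-fold lower were Cd79a, a chain of the antigen receptor (-1.26), and Fcer2a, the IgE receptor CD23 (-1.53). Under all 4 scalings each of the 9 stayed below the all-gene median. After the alignment the 9 ratios also lay below -0.06, the median of genes with a mean level of 10000 and over. Of 11 T cell markers 9 lay above the filter, the brightest being Cd2 at 2131 in transgenic and 2845 in non-transgenic cells. Mouse B cells also express Cd2, so its level does not single out T cells. Of the CD3 chains, Cd3d (349 in transgenic and 315 in non-transgenic cells) and Cd3g (274 in transgenic and 353 in non-transgenic cells) were above it and Cd3e (76.8 in transgenic and 41.7 in non-transgenic cells) was under it, a choice made with their values known. Thy1, used to deplete T cells, was at 101 in transgenic and 208 in non-transgenic cells. Itgax, which encodes CD11c, was above the filter at 804 in transgenic and 670 in non-transgenic cells.

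Natural killer cells and myeloid cells also make Tnf and Ccl3. The 10 natural killer markers above the filter had a median log2 ratio of 0.54 and none was at the floor. Their summed level was 8712 in transgenic and 6013 in non-transgenic cells. Gzma (1.02) and Klre1 (1.29) were at least 2-fold higher. Of the 10, 6 lay above the all-gene median ratio and 4 below it. The lowest were Il2rb (-0.74, with another probe set at -1.20) and Gzmb (-0.61). The 12 myeloid markers had a median of -0.05 and a summed level of 34623 in transgenic and 31143 in non-transgenic cells, with none at the floor. Their only member past 2-fold was Mpo, at 106 in transgenic and 50.7 in non-transgenic cells. The brightest was Cybb, a subunit of the phagocyte oxidase, at 7618 in transgenic and 8199 in non-transgenic cells (-0.11). Relative to all genes the natural killer median was between 0.33 and 0.36 under the 4 scalings, and the myeloid median between -0.23 and -0.20. The heat shock list, which responds to cell handling, had a median of 1.09 over 8 genes, with Hspa1a, Hspa1b, Hsph1 and Dnaja1 at least 2-fold higher. Hsp90aa1 (0.29) and Dnajb1 (0.31, with another probe set at 1.03) were within 2-fold, and Hspb1 was lower (-0.61). Hspa8 stood at 0.89 by its brightest probe set and from 0.21 to 0.24 by its others. The part of these cells and of handling in the ratios of Tnf, Ccl3 and Tgfb1 was not tested.

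The T cell list had Cd4 (2.01) higher and Thy1 (-1.04) lower past 2-fold, and a median of -0.31 over 9 genes above the filter. Its summed level was 4127 in transgenic and 4840 in non-transgenic cells, with Cd2, also a B cell gene, the largest part. Dendritic cell markers had a median of 0.26 over 9 genes and a summed level of 7226 in transgenic and 6893 in non-transgenic cells. By the brightest probe set Ccr9 (1.06) was higher and Batf3 (-1.36) lower past 2-fold. Other probe sets of Ccr9 above the filter stood at 0.26 and -0.31. The 8 plasma cell markers, whose cells can also make Il10, had none past 2-fold by the brightest probe set (another of Sdc1 stood at -2.29), a median of -0.04 and a summed level of 49998 in transgenic and 50399 in non-transgenic cells. The list's brightest gene was Jchain, the joining chain of secreted IgM and IgA, at 18279 in transgenic and 23590 in non-transgenic cells (-0.37). Of 5 basophil and mast cell markers only Kit passed the filter, at 135 in transgenic and 63.8 in non-transgenic cells (1.08), and Mcpt8, Cpa3 and Fcer1a did not exceed the floor in non-transgenic cells.

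Receptors for these products were mostly within 2-fold, as were most genes above the filter. Over the 12 receptors above the filter the median log2 ratio was 0.01. Past 2-fold 1 was higher and 0 were lower, against 4.43% and 3.19% of all genes above the filter. The higher one was Tgfbr3, the betaglycan co-receptor of transforming growth factor beta, at 150 in transgenic cells and below the floor in non-transgenic cells, which makes it at least 5.97-fold higher. Its second probe set was under the filter at -0.57. The signalling receptors Tgfbr1 and Tgfbr2 stood at 0.65 and -0.09, the tumour necrosis factor receptors Tnfrsf1a and Tnfrsf1b at 0.07 and -0.34 by their brightest probe sets (another of Tnfrsf1b stood at -1.26). Ltbr, the lymphotoxin receptor of stromal and myeloid cells, was at 164 in transgenic and 84.4 in non-transgenic cells (0.96). The interleukin 10 receptor chains Il10ra and Il10rb were at -0.43 and -0.01, and the interleukin 6 receptor chains Il6ra and Il6st at -0.34 and 0.17. Ccr1, a receptor of Ccl3, was at 324 in transgenic and 316 in non-transgenic cells (0.04), and Ccr4, the receptor of Ccl22, was under the floor on both arrays.

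Interleukin 35 is a dimer of Ebi3 and the product of Il12a. Il12a was at 875 in transgenic and 823 in non-transgenic cells (0.09), and the p40 gene Il12b was under the filter at 37.6 in transgenic and 54.1 in non-transgenic cells. Il27, which encodes the other partner of Ebi3, was not analysed here.

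Of 7 genes of release and activation above the filter, 1 was higher and 0 were lower past 2-fold by the brightest probe set. Over all genes above the filter these shares were 4.43% and 3.19%. The sheddase gene Adam17, whose product cleaves tumour necrosis factor from the membrane, was at 2707 in transgenic and 2688 in non-transgenic cells (0.01), and its cofactor Rhbdf2 stood at -0.37. Furin, the protease that processes the Tgfb1 precursor, stood at -0.35. Nrros, which anchors latent transforming growth factor beta on myeloid cells, was at 4683 in transgenic and 4583 in non-transgenic cells (0.03). The higher one was Ltbp4, a latent complex binding protein, at 124 in transgenic and 55.8 in non-transgenic cells (1.15). Itgav, an integrin chain, stood at 0.52 by its brightest probe set. Another of its probe sets above the filter stood at 1.31 and another under the filter at -1.35.

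Regulators of messenger decay bind the AU-rich or stem-loop elements of cytokine messengers. None of 9 was past 2-fold by its brightest probe set, against 4.43% higher and 3.19% lower among all genes above the filter. The median log2 ratio of the 9 was 0.03. In 4 of the 9 another probe set above the filter was past 2-fold, at -1.32 for Zfp36l1, -1.72 for Zfp36l2, -1.40 for Khsrp and 1.25 for Elavl1. Zfp36 encodes tristetraprolin, which speeds the decay of the Tnf messenger. It was at 11229 in transgenic and 16454 in non-transgenic cells (-0.55). Zc3h12a, which encodes the endonuclease regnase-1, was at 686 in transgenic and 1268 in non-transgenic cells (-0.89), with its other probe set at -0.67. Rc3h1, the gene of the repressor roquin-1, was at 2507 in transgenic and 1553 in non-transgenic cells (0.69).

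Transcription factors that act on these genes had 0 of 21 past 2-fold by the brightest probe set and a median of 0.02. Among all genes above the filter 4.43% were higher and 3.19% lower past 2-fold. Other probe sets were past 2-fold in 1 factor, Hif1a (1.002 and -1.48). The brightest were the AP-1 subunits Fos, at 22745 in transgenic and 20376 in non-transgenic cells (0.16), and Jun, at 12162 in transgenic and 16380 in non-transgenic cells (-0.43). The 10 surface markers of regulatory B cells likewise had none past 2-fold by the brightest probe set and a median of -0.11. Other probe sets above the filter were past 2-fold in 2 of them, at 1.87 and 1.28 for Entpd1, the ectonucleotidase CD39, and at 1.12 for Fasl. Cd24a was at 22348 in transgenic and 25227 in non-transgenic cells (-0.17), and Cd1d1 at 10085 in transgenic and 7261 in non-transgenic cells (0.47).

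Other cytokine genes were mostly dim: 9 of 31 lay above the filter, none past 2-fold by its brightest probe set, with a median of -0.32. Another probe set of Csf1 stood at -1.18. The brightest were Il16, a chemoattractant for CD4 cells, at 5089 in transgenic and 6374 in non-transgenic cells (-0.32), and Il18, which induces interferon gamma, at 1067 in transgenic and 550 in non-transgenic cells (0.96). Of 21 other chemokine genes 11 lay above the filter. By the brightest probe set 0 were higher and 1 lower past 2-fold, against 4.43% and 3.19% of all genes above the filter. The lower one was Ccl1, at 47.8 in transgenic and 103 in non-transgenic cells (-1.10). A probe set of Cxcl1 other than its brightest was at 174 in transgenic cells and below the floor in non-transgenic cells (2.80).

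**Figure D4:**
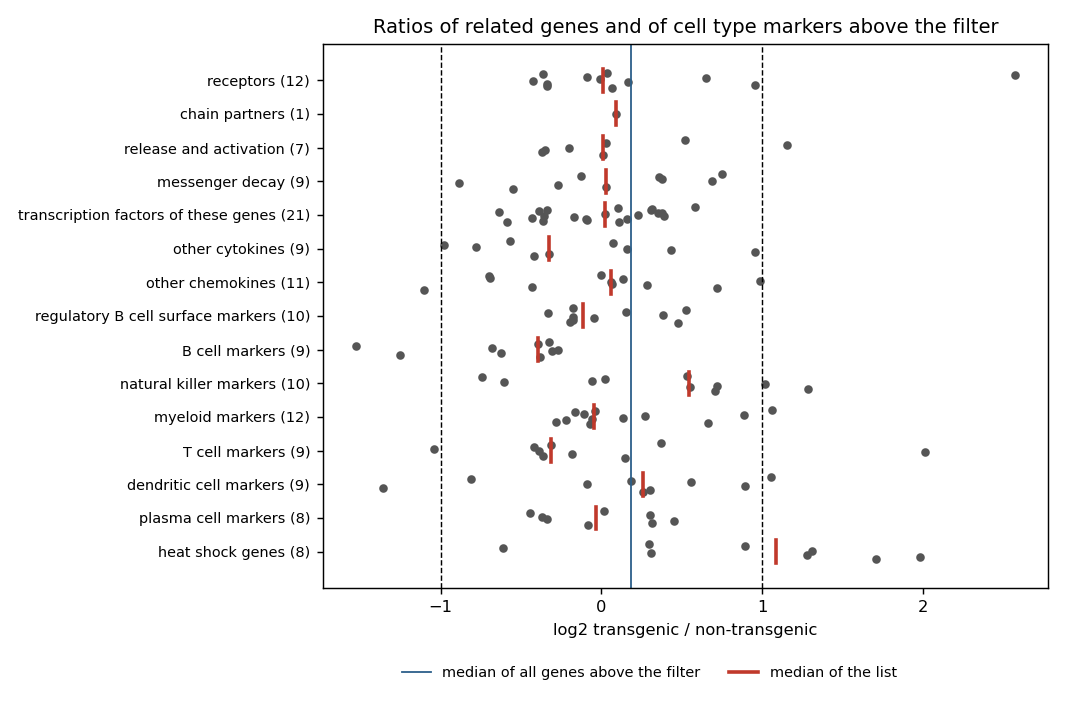
Log2 ratio of transgenic over non-transgenic intensity for genes above the filter in lists related to the members and in cell type and heat shock marker lists, with the number of genes in brackets. Each point is 1 gene, the short red bar is the list median, the blue line is the median of all genes above the filter at 0.19 and dashed lines mark 2-fold; B cell markers lie left of the blue line and heat shock genes mostly right of it.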

How the data were processed

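The authors deposited 1 linear signal intensity per probe set and array. The software behind the scaling is not given in the sources used here, and detection calls were not used. The trimmed mean without the outer 2% was 500.0 on both deposited arrays. Array medians were 93.1 (transgenic) and 104.3 (non-transgenic), so medians were aligned (factors 1.06 and 0.947, since they differed by over 0.1 on the log2 scale). Values under the pooled 25th percentile, 25.1, were set to it before log2, and genes were kept whose higher value reached the pooled median, 98.8. The probe set of highest mean log2 level stood for a gene, and 64 control probe sets were left out. Of 45037 probe sets 34945 carry 1 symbol, 932 several and 9160 none. All 10 member symbols matched RefSeq GRCm38.p6. All members and genes of the role lists could be named. Elsewhere up to 4 genes past 2-fold were named, or the 2 brightest, and of cell type lists also the brightest and any past 2-fold. The members and lists were chosen with earlier results of these data known. The steps were tested on simulated arrays, with changes set only in genes well above the filter and the same noise at all levels. That test does not cover dim members such as Tnf and Il10. Alternatives were 3 other scalings and other floors, filters, probe set rules and fold thresholds. Computation ran in Python 3.11.15 with pandas 2.3.3, statsmodels 0.14.6 for loess, numpy 2.4.6, and matplotlib 3.10.9 for plots.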

Additional observations from a re-analysis of the deposited data

How the results depend on the processing

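Each result was recomputed under 13 alternatives. Of 208 values, 179 kept their side of the 2-fold threshold and moved by less than 0.36, the same-gene probe set spread. Counts were allowed to move by at most 1.5 times. Filters and fold thresholds leave a member's log2 ratio unchanged by construction, as do probe set rules for the 9 members with 1 probe set. Much of that agreement was therefore fixed in advance and is no measure of stability. Without scaling 0 members were at least 2-fold higher (Tnf 0.96, Ccl3 0.84) and 1 was lower (Tgfb1 -1.05). After quantile normalization 1 was higher (Tnf) and 1 lower (Tgfb1 -1.08), and after loess also 1 (Tnf) and 1 (Tgfb1 -1.06). Ccl3 was under 2-fold in both, at 0.88 after quantile normalization and 0.87 after loess. No share of all genes past 2-fold is given beside these counts. Over a filter at the 75th percentile 5 members remained, 1 of them higher, since Tnf (1.12) fell under it. At a 3-fold threshold 0 were higher, with Tnf at 1.12 and Ccl3 at 1.002, and at 1.5-fold 1 was lower, Tgfb1 (-0.88), while Ebi3 (0.60) joined the higher ones. With the floor at the median Il6 and Ccl22 had a ratio of 0 by construction. Relative to all genes, the median of members above the filter was 0.10 for regulatory cytokines, -0.02 for inflammatory cytokines and 0.16 for chemokines. The regulatory median became -0.33 with both values above the filter and -0.38 at the 75th percentile, because Il10 left. Without a filter the inflammatory median was 0.36 and the chemokine median -0.33, and at the 75th percentile the chemokine median was 0.77, that of Ccl3 alone. Medians of so few genes follow single members. The signs of Tnf, Ccl3, Ccl4, Il10, Tgfb1 and Ebi3 were the same under all 13, while Lta and Ltb were below 0 under 2 each. For a member with 1 probe set, only the 3 other scalings and, near the floor, the other floors could change the ratio. No paired analysis was possible because each group is 1 array, and no replicate could be left out. Il6, Il10 and Ccl22 are limited by signal near background.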

Other observations

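Several genes around these cytokines gave different ratios from different probe sets, and which transcripts each probe set reads was not examined. These genes were picked after their values were seen. For Zfp36l2, a decay factor of cytokine messengers, the brightest probe set was at 8250 in transgenic and 9929 in non-transgenic cells (-0.27), while others stood at -1.72 and 0.72. Itgav, an integrin chain that helps to activate latent transforming growth factor beta, was at 1854 in transgenic and 1292 in non-transgenic cells by its brightest probe set (0.52), with others from -1.35 to 1.31. Tgfbr1 stood at 0.65, -0.76 and -0.03 by its 3 probe sets, and Tnfrsf1b at -0.34 and -1.26. Cxcl1, a neutrophil chemoattractant, was near equal by its brightest probe set (0.06). Another, whose name marks sequence shared between transcripts, was at 174 in transgenic cells and below the floor in non-transgenic cells. By contrast, the log2 ratios of the Tgfb1 probe sets were -0.88 and -0.76.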
